A study of Mus musculus with 6 samples.

Results

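The interferon-stimulated genes and interferon regulatory factors described here are 43 genes, taken by name from the 48897 genes of a deposited count table. All 43 were found in the table and all 43 passed the filter on low counts, which left 19033 genes to test. RNA was taken from sinusoidal endothelial cells that magnetic beads against CD146 had pulled out of the livers of C57BL/6 mice aged 7 to 8 weeks. The mice had undergone partial hepatectomy (PHx, removal of part of the liver) or a sham operation 14 days earlier, with 3 libraries in each group, numbered 1, 3 and 4. No transgene, deletion or drug is named for either group. Whether each library is a separate animal is not stated in the labels, so the p-values reflect the spread among these libraries alone, and part of it may be technical.

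Type I interferons bind a receptor made of the IFNAR1 and IFNAR2 chains, and interferon gamma binds one made of IFNGR1 and IFNGR2. Receptor-bound kinases of the JAK family then activate STAT proteins. STAT2, in a complex with IRF9, switches on antiviral genes through interferon-stimulated response elements, while the response to interferon gamma acts through gamma-activated sites. Some of the induced genes, such as Irf7, Ddx58 and Ifih1, feed back into the detection of viral nucleic acids. Liver sinusoidal endothelial cells line the liver's capillaries, face gut-derived microbial material in portal blood, and carry interferon receptors.

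Library totals ranged from 38765116 to 51888481 counts. Levels are given as CPM, counts scaled to library size with trimmed-mean-of-M-values factors. Sinusoidal endothelial markers were abundant throughout. The 10 listed genes summed to between 28762 and 30997 CPM in sham and between 16021 and 24609 CPM in PHx, with none called by edgeR and 5 called lower by DESeq2. In 8 of the 10 all PHx libraries lay below all sham libraries, and Lyve1 and Mcam overlapped, with log2 fold changes of 0.16 and 0.11. Summed levels of 10 stellate and fibroblast markers were 1640.0 to 2086 CPM in sham and 4910 to 6416 CPM in PHx, with 7 of 10 called higher by edgeR and 9 by DESeq2. Summed levels of 14 neutrophil markers were 471, 255 and 49.7 CPM in Sham 1, 3 and 4 and 855, 38.7 and 4964 CPM in PHx 1, 3 and 4, with 1 marker, Stfa2l1, at 0 in Sham 4. Summed levels of 10 hepatocyte markers ranged from 608 CPM in PHx 3 to 1642 CPM in Sham 3. Those of 12 Kupffer cell and macrophage markers ranged from 177 CPM in Sham 3 to 636 CPM in Sham 1. Neither edgeR nor DESeq2 called any marker of these lists. In such bulk libraries fewer cells of a type and less RNA per cell cannot be told apart.

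Promoter sequences show the 2 kinds of element described above, and 10 stretches are printed because their genes carry the results that follow, from the uneven Ifit1 to the steady Stat2. RefSeq windows of GRCm38.p6, 250 bases before to 50 bases from each gene start, were found for 35 of the 43 genes. Dhx58, Zbp1, Usp18, Mx1, Mx2, Oas2, Rtp4 and Parp14 had none in the table used. Each stretch runs 5′ to 3′ on the gene's own strand, from 20 bases before the first match to at most 20 bases after the last, and ends before the RefSeq gene start. That start can differ from the deposited gene intervals given later, so the Ifit3 stretch lies inside its interval and the Irgm1 stretch partly so. In the first 8, capitals mark the response element core, which is GAAA, any 2 bases and GAAA, on either strand (TTTC, any 2 bases and TTTC on the other), and in the last 2 they mark the gamma-activated site TTCNNNGAA, which reads the same on both strands. Matches of the same motif can overlap.
Ifit1, chr19:34640765-34640833, plus strand: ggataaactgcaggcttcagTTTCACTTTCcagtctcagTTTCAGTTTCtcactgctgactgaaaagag
Ifit3, chr19:34583353-34583436, plus strand: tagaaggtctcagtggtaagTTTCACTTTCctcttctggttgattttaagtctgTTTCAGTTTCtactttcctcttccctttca
Rsad2, chr12:26456543-26456592, minus strand: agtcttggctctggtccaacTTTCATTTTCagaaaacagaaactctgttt
Irgm1, chr11:48871421-48871470, minus strand: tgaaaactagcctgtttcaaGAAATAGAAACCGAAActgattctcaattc
Isg15, chr4:156200855-156200916, minus strand: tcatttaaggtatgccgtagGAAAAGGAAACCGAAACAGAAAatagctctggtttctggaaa
Bst2, chr8:71537567-71537622, minus strand: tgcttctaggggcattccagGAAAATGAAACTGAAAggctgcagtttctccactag
Gbp2, chr3:142620584-142620633, plus strand: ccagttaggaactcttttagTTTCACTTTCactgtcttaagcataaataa
Stat2, chr10:128270256-128270305, plus strand: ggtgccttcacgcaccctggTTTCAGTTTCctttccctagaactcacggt
Irf1, chr11:53769904-53769952, plus strand: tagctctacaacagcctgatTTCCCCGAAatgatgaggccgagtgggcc
Irf8, chr8:120736167-120736233, plus strand: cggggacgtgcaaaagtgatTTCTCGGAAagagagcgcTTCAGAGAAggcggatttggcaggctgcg

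The response element core was found in 17 of the 35 genes with a window (48.6%), and in 3.99% of all 27025 genes with windows of this length. The gamma-activated site was found in 13 of the 35 (37.1%) and in 9.55% of all genes. A match of each kind overlapped in 1 case, in Bst2. The genes had been listed for their known response to interferon, so these shares describe the list and support nothing beyond it. Isg15 held 3 overlapping matches of the response element core, and Ifit1, Ifit3, Irgm1, Bst2, Gbp3 and Oas1a held 2 each. Ifngr1, Ifngr2, Irf3, Irf5, Irf7, Irf9, Trim25, Oasl1, Oasl2, Xaf1 and Ifi44 had no match of either motif in their windows. That says only that these letters are not there.

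**Figure D1:**
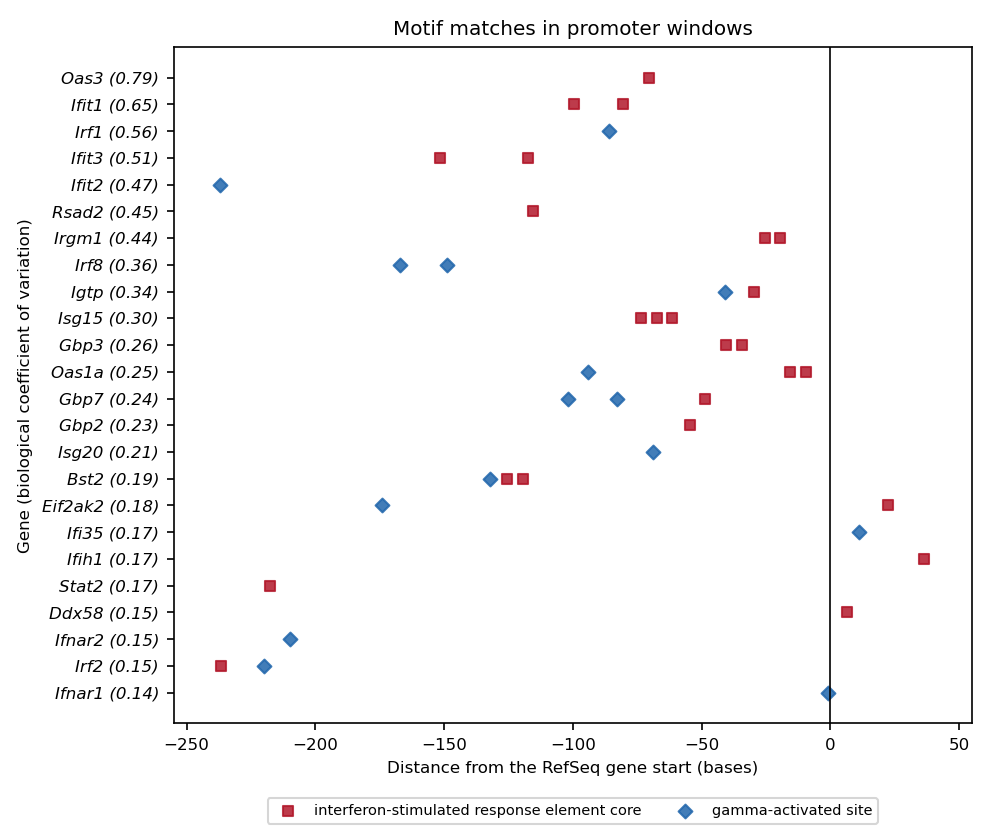
Position of each motif match relative to the RefSeq gene start (x axis, bases; the vertical line at 0 is the gene start) for the genes with a match, ordered by their spread between libraries (biological coefficient of variation in parentheses). Squares mark the response element core and diamonds the gamma-activated site; matches occur both in genes with a wide spread, such as Ifit1 (0.65), and in genes with a narrow spread, such as Stat2 (0.17).

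The comparison of PHx with sham asked whether the interferon programme of these cells differed on day 14. None of the 43 genes passed edgeR's quasi-likelihood test at a Benjamini-Hochberg adjusted p under 0.05 over all 19033 genes, a threshold that 0.862% of all tested genes passed (0.846% higher and 0.0158% lower in PHx). At an adjusted p under 0.10 the count was 0 as well, against 1.89% of all tested genes. The smallest adjusted p-value was 0.272, for Ifi35. The median log2 fold change was 0.03 over the 43 genes and 0.03 over all tested genes, with 25 values above 0 and 18 below. At an unadjusted p under 0.05 there were 2 genes (4.65%), Oas2 and Ifi35, against 12.7% of all tested genes. DESeq2 called 1 gene, Oas2, against 4.73% of the genes it tested, and limma-voom called 0, against 0.499%. PHx and sham libraries did not overlap for 3 genes (6.98%), against 20.5% of all tested genes. Oas2 and Ifnar2 lay higher in PHx, as did 10.6% of all tested genes, and Ifi35 lower, as did 9.96%.

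A test that misses its threshold does not show equal levels, so the width of each estimate matters. The 95% interval of the log2 fold change lay within 1 on either side of 0 for 28 of the 43 genes, and within 0.5 for 15. These 15 included all 4 receptor chains and 4 of the 5 sensing genes. For 15 genes the interval reached beyond 1. It was widest for Oas3 (-1.53 to 3.44), Mx2 (-1.88 to 2.21) and Ifit1 (-2.23 to 1.79), the 3 genes with the highest coefficients of variation given below.

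**Figure D2:**
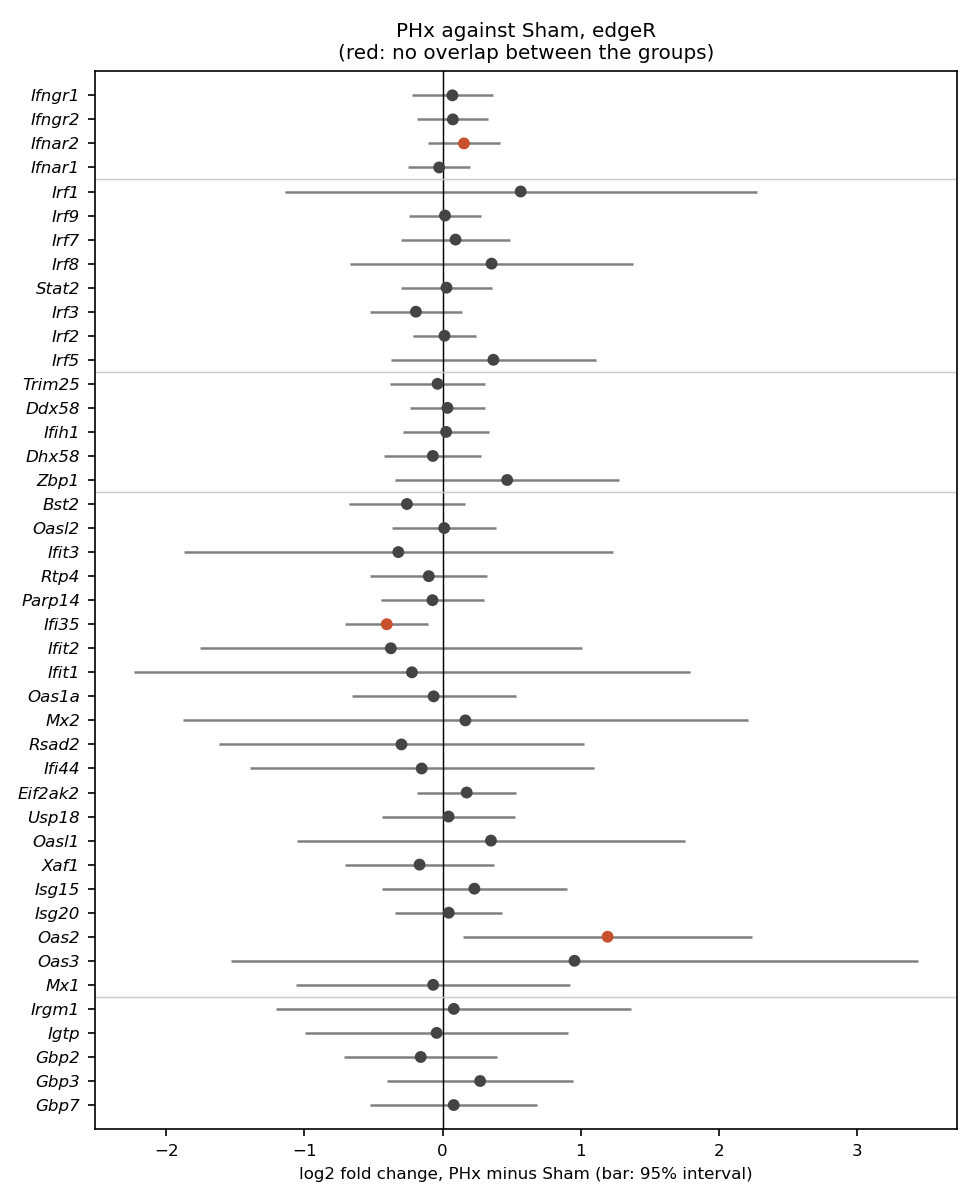
Log2 fold change of PHx minus sham for each of the 43 genes (points) with its 95% interval (bars) from edgeR, grouped by role from receptors at the top to GTPases at the bottom. Red points mark Ifnar2, Ifi35 and Oas2, whose groups did not overlap; Oas2 lies farthest from 0, at 1.19, and the receptor and sensing genes other than Zbp1 have narrow bars.

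All 4 receptor chains were expressed at steady levels, and none passed the test. Ifnar1, the chain shared by responses to all type I interferons (chromosome 16, 91485087 to 91510523, mm10), stood at 132, 128 and 127 CPM in Sham 1, 3 and 4 and at 122, 122 and 137 CPM in PHx 1, 3 and 4. Its log2 fold change was -0.02 ± 0.10 (SE, n = 3 per group). Ifnar2, the partner chain with high affinity for the ligand (chromosome 16, 91372783 to 91405589), stood at 129.6, 128 and 128 CPM in sham and at 136, 130.4 and 163 CPM in PHx. The PHx libraries of Ifnar2 all lay above the sham libraries, PHx 3 by less than 1 CPM, and the log2 fold change was 0.15 ± 0.11 with an adjusted p of 0.588 in edgeR.

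The interferon gamma receptor chains showed the same steadiness. Ifngr1, which binds the ligand (chromosome 10, 19591958 to 19610225), was at 76.8, 78.8 and 68.3 CPM in sham and 84.3, 66.5 and 84.5 CPM in PHx. Ifngr2, the signal-transducing chain (chromosome 16, 91547094 to 91564007), was at 66.0, 69.8 and 61.6 CPM in sham and 69.8, 62.0 and 76.1 CPM in PHx. Both pairs of groups overlapped, with log2 fold changes of 0.07 ± 0.13 and 0.07 ± 0.11. Per length, on the deposited RPKM scale, which divides the counts by gene length and by the library's total, Ifngr1, Ifngr2 and Ifnar2 averaged 36.5, 32.6 and 32.4 over the 6 libraries and Ifnar1 averaged 17.9. Ifnar1 lay below the others in every library, while the levels of the other 3 overlapped.

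**Figure D3:**
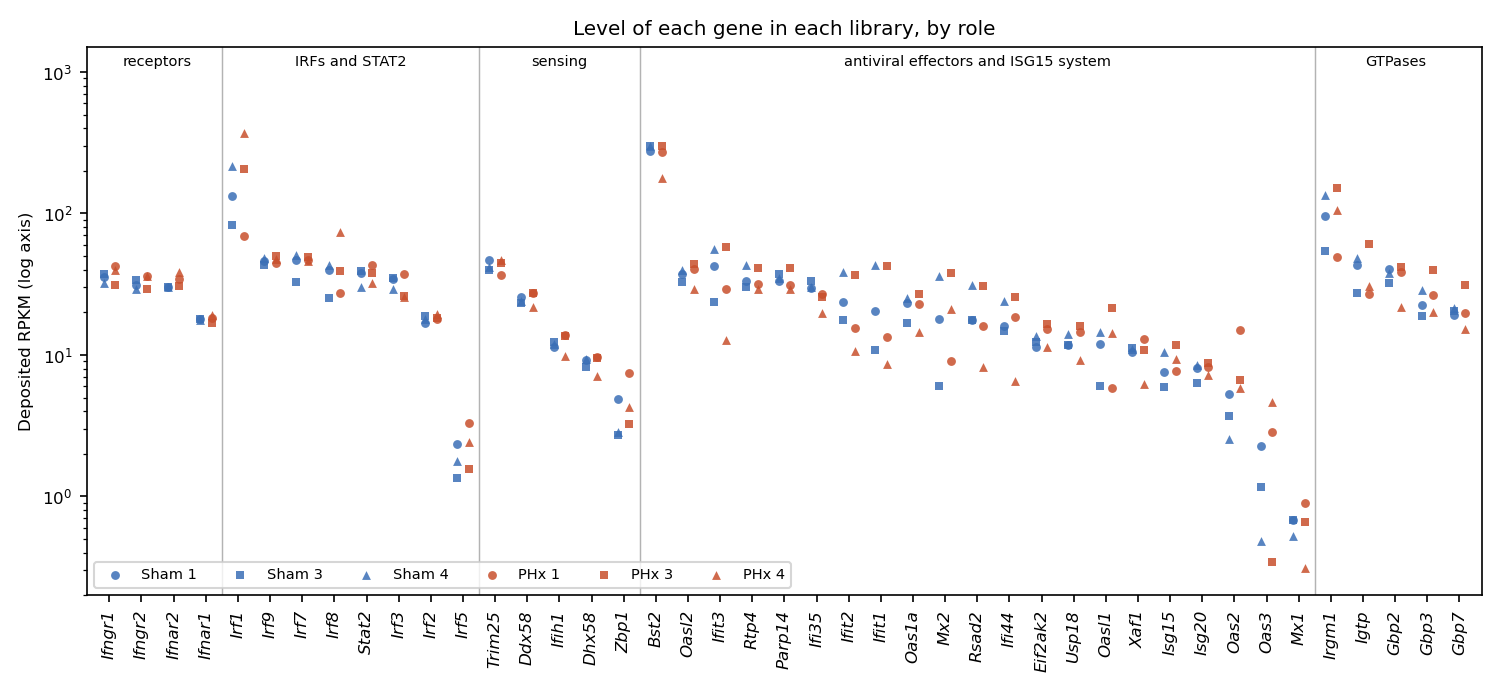
Deposited RPKM of each of the 43 genes (log axis) in the 3 sham (blue) and 3 PHx (red) libraries, by role and in order of mean level within a role. Blue and red points overlap for all but Ifnar2, Ifi35 and Oas2 on the scale used for the test; Bst2 is the most abundant, at a mean of 269.8 RPKM, and Mx1 the least, at 0.628 RPKM.

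Among the transcription factors, Irf1 was the most abundant and the most uneven. Irf1 encodes a factor that both interferon gamma and inflammatory signals induce (chromosome 11, 53770014 to 53778374). It stood at 460.5, 277 and 734 CPM in Sham 1, 3 and 4 and at 219.6, 698 and 1259 CPM in PHx 1, 3 and 4. The lowest and the highest library were both PHx libraries, and they enclosed the whole sham range. The log2 fold change was 0.57 ± 0.68 with an adjusted p of 0.758 in edgeR, and it was 0.99 without PHx 1 and -0.10 without PHx 4.

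Irf8, a factor best known from myeloid and dendritic cells (chromosome 8, 120736358 to 120756694), followed the order of Irf1 in PHx. It was at 139.5, 87.0 and 151 CPM in sham and 89.1, 138 and 255 CPM in PHx, so the groups overlapped. Its log2 fold change was 0.35 ± 0.42, and -0.15 without PHx 4. PHx 4 was also the library with the highest summed neutrophil markers (4964 CPM). The other libraries did not keep that order. PHx 1, the lowest PHx library for both genes, had a sum of 855 CPM, and PHx 3 had 38.7 CPM. Sham 4, the highest sham library for both genes, had the lowest sham sum (49.7 CPM). The part of neutrophils in the Irf1 and Irf8 values was not tested.

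The factors of the type I response were steady. Irf9, the DNA-binding partner of STAT2 (chromosome 14, 55603985 to 55610030), was at 128, 116 and 131 CPM in sham and 112, 138 and 129.7 CPM in PHx. Stat2 (chromosome 10, 128270559 to 128292852) was at 177, 178 and 138 CPM in sham and 183, 173 and 146 CPM in PHx. Irf7, the factor that amplifies type I interferon production (chromosome 7, 141263183 to 141266499), was at 92.6, 63.1 and 98.8 CPM in sham and 84.9, 97.1 and 89.5 CPM in PHx. For each of these 3 genes the groups overlapped, and the intervals of the log2 fold change were -0.24 to 0.28, -0.30 to 0.36 and -0.30 to 0.49.

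The remaining factors overlapped between the groups too. Irf3, the constitutive factor activated downstream of nucleic acid sensors, was at 81.9, 81.9 and 68.5 CPM in sham and 80.8, 61.9 and 60.5 CPM in PHx. Irf2, which can oppose Irf1 at shared sites, ranged from 92.4 to 107 CPM over all libraries. Irf5, a factor of macrophages and B cells, was scarce, at 4.25 to 7.53 CPM in sham and 4.98 to 9.76 CPM in PHx. Mean levels per length ran from Irf1 (179.5 RPKM) through Irf9 (46.7), Irf7 (45.3), Irf8 (41.5), Stat2 (36.8), Irf3 (31.3) and Irf2 (18.2) to Irf5 (2.13). From Irf9 to Irf3, each gene overlapped the next in that order over its libraries.

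Genes that detect viral nucleic acids were among the steadiest of the list. Ddx58, which encodes the RNA sensor RIG-I (chromosome 4, 40203777 to 40239825), was at 130.3, 116 and 119 CPM in sham and 128, 138 and 109 CPM in PHx. Ifih1, which encodes the long double-stranded RNA sensor MDA5 (chromosome 2, 62595793 to 62646255), was at 66.4, 69.3 and 68.3 CPM in sham and 73.4, 78.1 and 56.1 CPM in PHx. Trim25, the ubiquitin ligase known to act with RIG-I (chromosome 11, 88999398 to 89020293), was at 267, 222 and 236 CPM in sham and 192, 253 and 262 CPM in PHx. In all 3 the PHx range enclosed or nearly enclosed the sham range, and the log2 fold changes were 0.04 ± 0.12, 0.03 ± 0.13 and -0.04 ± 0.15. Dhx58, the regulatory relative of both sensors, ranged from 17.2 to 23.2 CPM over all libraries.

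Zbp1, a sensor of Z-form nucleic acids that can trigger cell death (chromosome 2, 173206612 to 173218922), was scarcer and less even. It was at 10.8, 5.88 and 6.20 CPM in sham and 15.1, 7.13 and 9.31 CPM in PHx. The groups overlapped, with Sham 1 and PHx 1 highest in their groups. Its log2 fold change was 0.47 ± 0.35 with an adjusted p of 0.599 in edgeR.

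Of the 21 antiviral effectors and genes of the ISG15 system, 9 had a log2 fold change above 0 and 12 below, with a median of -0.07 and no call in edgeR. Oas2 had the largest difference. Oas2 encodes an enzyme that makes the 2′-5′ oligoadenylates that activate RNase L (chromosome 5, 120730333 to 120749874). It stood at 28.3, 19.5 and 13.3 CPM in Sham 1, 3 and 4 and at 73.9, 35.0 and 30.7 CPM in PHx 1, 3 and 4. All PHx libraries lay above all sham libraries, PHx 4 by a small margin over Sham 1.

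Oas2 averaged 20.4 ± 7.49 CPM over the sham libraries and 46.5 ± 23.8 CPM over the PHx libraries (SD, n = 3 each). PHx exceeded sham by 1.19 ± 0.43 on the log2 scale, with an adjusted p of 0.344 in edgeR, 0.0421 in DESeq2 and 0.317 in limma-voom. It was 0.68 without PHx 1 and 1.48 without Sham 1, and no edgeR fit that left out a library called it. The 11 monocyte and dendritic cell markers, none at 0, summed to 299 to 398 CPM in sham and 287 to 469 CPM in PHx. In sham most of this sum came from Zbtb46 (193 to 293 CPM) and Clec9a (76.2 to 86.1 CPM), so it says little about the other markers. Bst2 was also listed as such a marker, but was kept out of the 11 because it is among the antiviral effectors described here. Its log2 fold change was -0.26, with overlapping groups. Among the 11, only Zbtb46 and Clec9a had log2 fold changes below 0. Those of the others ran from 0.34 (Xcr1) to 2.42 (Ly6c2), and among them only Siglech and Cd209a did not overlap between the groups. EdgeR called none of the 11 markers. DESeq2 called 1 higher, Siglech of plasmacytoid dendritic cells (log2 fold change 2.34, adjusted p 0.000197), and 1 lower, Clec9a (-0.45, adjusted p 0.00538), while Ccr9, also known from plasmacytoid dendritic cells, overlapped between the groups. Xcr1 and Flt3, other markers of this list, averaged only 0.300 and 0.805 CPM in sham and 0.377 and 1.89 CPM in PHx. Which cells the Clec9a and Zbtb46 counts came from was not tested. The part of monocytes and dendritic cells in the Oas2 values was not tested either.

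Oas3, the neighbouring gene for another oligoadenylate synthetase (chromosome 5, 120753098 to 120777659), did not share the separation of the groups. It was at 10.9, 5.51 and 2.32 CPM in sham and 12.6, 1.64 and 22.1 CPM in PHx. PHx 3 was the lowest and PHx 4 the highest of all libraries, a 13.5-fold range within PHx. The log2 fold change of 0.95 ± 0.99 became 0.19 without PHx 4 and 1.60 without Sham 1. Oas3 followed the order of the summed neutrophil markers in all 6 libraries, as did 0.935% of all tested genes, and the part of neutrophils in its values was not tested.

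The other oligoadenylate synthetase genes kept apart from this pattern. Oas1a (chromosome 5, 120896256 to 120907544) was at 48.3, 34.0 and 51.7 CPM in sham and 43.2, 55.1 and 29.7 CPM in PHx. Oasl2, a related ubiquitin-like protein (chromosome 5, 114896934 to 114912245), was at 121, 103 and 125 CPM in sham and 119, 140.4 and 93.1 CPM in PHx. Both overlapped between the groups, with the highest values in Sham 4 and PHx 3. Oasl1, which is known to restrain Irf7 translation, had the same highest libraries at 33.1 and 49.8 CPM, and 12.5 to 32.8 CPM in the others. Oas1a has several close copies, and reads of relatives such as Oas1g may be among its counts.

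Ifi35, an interferon-induced leucine zipper protein (chromosome 11, 101448412 to 101458701), was the gene with the smallest p-value. It was at 41.8, 45.1 and 41.5 CPM in sham and 34.5, 35.5 and 27.1 CPM in PHx. All PHx libraries lay below all sham libraries. The means were 42.8 ± 2.02 and 32.4 ± 4.55 CPM (SD, n = 3 each), and the log2 fold change was -0.40 ± 0.13, with an adjusted p of 0.272 in edgeR and 0.157 in DESeq2. It ranged from -0.48 to -0.29 when a library was left out. The 10 sinusoidal endothelial markers had a median log2 fold change of -0.58, with Lyve1 and Mcam above 0 and none called by edgeR, and their part in the Ifi35 difference was not tested.

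The Ifit genes, whose proteins bind foreign or incompletely capped RNA, showed large differences between libraries of the same group. Ifit1 (chromosome 19, 34640889 to 34650009) was at 55.4, 28.9 and 114 CPM in Sham 1, 3 and 4 and at 33.0, 114 and 23.1 CPM in PHx 1, 3 and 4. Ifit2 (chromosome 19, 34550549 to 34576534) was at 107, 78.8 and 172 CPM in sham and 64.5, 164 and 47.5 CPM in PHx. Ifit3 (chromosome 19, 34583142 to 34588982) was at 117, 63.3 and 149.7 CPM in sham and 73.8, 156 and 34.3 CPM in PHx. In all 3 genes Sham 4 and PHx 3 were the highest libraries of their groups, and Sham 3 and PHx 4 the lowest.

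The ratio of the highest to the lowest library of Ifit1 was 3.96 in sham and 4.96 in PHx, while the group means were 66.2 ± 43.8 and 56.8 ± 50.1 CPM. The log2 fold change of Ifit1 was -0.22 ± 0.80, and it was -1.25 without PHx 3 and 0.39 without Sham 4. Those of Ifit2 and Ifit3 were -0.37 ± 0.55 and -0.32 ± 0.62. Ifit3b, the close neighbour and near copy of Ifit3, had the same highest and lowest libraries (21.3 to 47.6 CPM in sham and 10.00 to 48.4 CPM in PHx), so reads of the pair may have been shared.

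Rsad2, Mx2 and Ifi44 repeated parts of this order. Rsad2 encodes viperin, an enzyme that makes a chain-terminating nucleotide (chromosome 12, 26442743 to 26456452). It was at 68.8, 66.7 and 119.7 CPM in sham and 57.4, 119 and 31.4 CPM in PHx. Mx2, an interferon-induced GTPase (chromosome 16, 97536081 to 97560901), was at 45.0, 14.8 and 88.3 CPM in sham and 20.6, 93.5 and 52.0 CPM in PHx. Ifi44 (chromosome 3, 151730922 to 151749959) was at 48.0, 43.1 and 70.8 CPM in sham and 51.0, 75.5 and 19.2 CPM in PHx. For each, Sham 4 and PHx 3 were again highest in their groups, and the groups overlapped.

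Mx1, the nuclear antiviral GTPase that is defective in C57BL/6 and most other laboratory strains, was the scarcest of the 43 genes. It stood at 1.88, 1.86 and 1.44 CPM in sham and 2.26, 1.82 and 0.854 CPM in PHx, without separation of the groups. Per length its mean was 0.628 RPKM, against 21.4 RPKM for Mx2, and Mx1 lay below Mx2 in every library.

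Bst2, which encodes tetherin, a membrane protein that holds virus particles at the cell surface (chromosome 8, 71534259 to 71537437), was the most abundant of the 43 genes per length. It was at 217, 229 and 233 CPM in sham and 196, 233 and 139 CPM in PHx, with PHx 4 lowest and PHx 3 level with the top of sham. Its log2 fold change was -0.26 ± 0.18, with an adjusted p of 0.578 in edgeR. Parp14, a mono-ADP-ribosyltransferase, ranged from 305 to 436 CPM and Rtp4, a chaperone of membrane receptors, from 64.8 to 95.8 CPM over all libraries. Xaf1, a regulator of apoptosis, stood at 38.0 to 39.9 CPM in sham and at 22.2 to 43.3 CPM in PHx.

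The ISG15 system and the remaining effectors were low to moderate. Isg15, the ubiquitin-like modifier (chromosome 4, 156199424 to 156200818), was at 5.91, 4.52 and 7.96 CPM in sham and 5.43, 9.01 and 7.14 CPM in PHx, with overlapping groups. Usp18, the protease that removes ISG15 and dampens receptor signalling, ranged from 16.6 to 28.9 CPM, and Isg20, an exonuclease, from 11.4 to 15.9 CPM. Eif2ak2, the RNA-activated kinase PKR, was at 53.3, 57.0 and 62.8 CPM in sham and 65.2, 77.7 and 52.5 CPM in PHx. Their log2 fold changes lay between 0.04 and 0.23, with adjusted p-values of at least 0.657 in edgeR.

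None of the 5 interferon-inducible GTPases, which act against intracellular microbes, passed the test. Irgm1 (chromosome 11, 48865245 to 48871454) was at 256, 141 and 356 CPM in sham and 120.5, 399 and 278 CPM in PHx. Igtp (chromosome 11, 58199556 to 58207592) was at 90.5, 55.5 and 99.1 CPM in sham and 51.1, 124 and 62.3 CPM in PHx. Gbp2 (chromosome 3, 142620663 to 142638008) was at 102, 80.0 and 94.1 CPM in sham and 89.5, 104 and 54.2 CPM in PHx. The groups overlapped in all 3, with PHx 3 the highest PHx library in each.

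Gbp3 and Gbp7 had their highest values in Sham 4 (93.6 and 122 CPM) and PHx 3 (129.9 and 178 CPM). The log2 fold changes of the 5 GTPases ranged from -0.16 to 0.27. Guanylate-binding protein genes form a cluster of similar copies on chromosome 3, so their counts may be divided unevenly among them. Irgm1 had the highest level per length, at a mean of 98.7 RPKM, and the other 4 averaged between 21.2 and 39.5 RPKM.

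Many of these genes differed widely between libraries of the same group. At a mean of at least 10 CPM, 13 of 38 genes (34.2%) differed at least 2-fold between the highest and lowest library of a group, against 11.2% of the 9364 genes at that level. In both groups at once this held for 8 of the 38 (21.1%), against 3.59%. The biological coefficient of variation, edgeR's moderated estimate of the relative spread within groups, had a median of 0.23 over the 43 genes and 0.28 over all tested genes, which include many scarcer ones. At 10 CPM or more, 25 of the 38 genes exceeded the median of the 9364 genes at that level, 0.18. By role its median was 0.15 for the receptors, 0.17 for sensing genes, 0.18 for the transcription factors, 0.26 for the GTPases and 0.30 for the effectors.

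**Figure D4:**
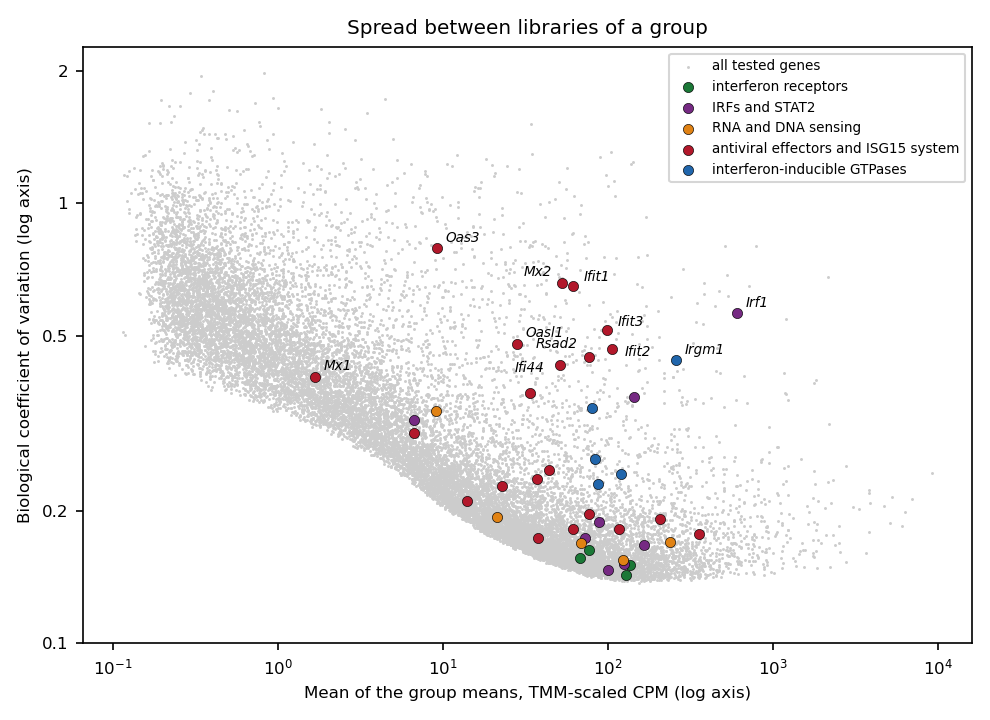
Biological coefficient of variation within groups against mean level (both log axes) for the 19033 tested genes (grey) and the 43 genes by role (coloured). Oas3 (0.79), Mx2 (0.66), Ifit1 (0.65) and Irf1 (0.56) stand highest among the 43, while the 4 receptor genes lie between 0.14 and 0.16.

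Both steady and uneven genes held the response element. Of the 17 genes with the core in their window, 7 had at least a 2-fold range within a group, and of the 18 without it 5 did. Zbp1, Mx1, Mx2 and Oas2 also had such a range but no window, so they are in neither count. The median coefficient of variation was 0.25 with the core and 0.19 without it, given here as a description with no test. Stat2, Ddx58 and Bst2 held the core and had coefficients of 0.17, 0.15 and 0.19, whereas Ifit1 and Ifit3, with 2 cores each, had 0.65 and 0.51.

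Many of the genes had their high and low libraries in common. Sham 3 was the lowest sham library for 27 of the 43 genes (62.8%), against 31.3% of all tested genes, and Sham 4 the highest for 24 (55.8%), against 35.8%. PHx 3 was the highest PHx library for 27 (62.8%), against 30.8%, and PHx 4 the lowest for 24 (55.8%), against 36.5%. Of the 16 genes with at least a 2-fold range in either group, Sham 4 and PHx 3 were jointly highest in 10. The 16 were picked by their range within groups, and no share over all tested genes was computed for this count, which is a description only. These genes are not independent of each other, so the counts describe the libraries and not the operation.

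Set against PHx 3, PHx 4 divided the uneven genes, a division drawn after the values were seen. Relative to PHx 3 it held 0.202 times the Ifit1 level, 0.220 times that of Ifit3, 0.255 times that of Ifi44 and 0.264 times that of Rsad2. It held 1.80 times the Irf1 level, 1.85 times that of Irf8, 1.31 times that of Zbp1 and 13.5 times that of Oas3. Irgm1, Oasl1 and Mx2 lay between, at 0.695, 0.659 and 0.556 times. The division depended on the library compared. Relative to PHx 1, PHx 4 held 2.30, 2.63 and 2.53 times the levels of Irgm1, Oasl1 and Mx2, and 0.699 times that of Ifit1. PHx 4 also had the lowest summed sinusoidal endothelial markers (16021 CPM) and PHx 3 the highest of PHx (24609 CPM), and their part in these ratios was not tested. In Sham 1, 3 and 4, Ifit1 stood at 55.4, 28.9 and 114 CPM and the endothelial marker sums at 30997, 30285 and 28762 CPM. The relation of these values was not tested either.

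**Figure D5:**
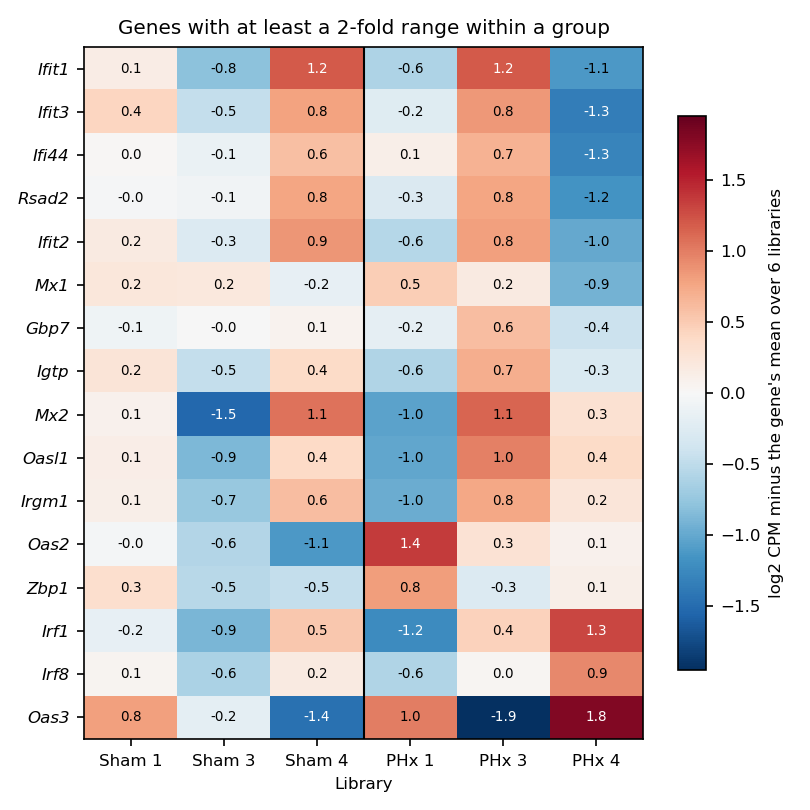
Log2 CPM of the 16 genes with at least a 2-fold range within a group, relative to each gene's mean over the 6 libraries (columns), ordered from the lowest to the highest ratio of PHx 4 to PHx 3. Ifit1, Ifit2 and Ifit3 are high in Sham 4 and PHx 3 and low in PHx 4, whereas Irf1, Irf8 and Oas3 are highest in PHx 4.

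All but 1 of the listed ligand genes were at or near the limit of detection, and Ifng was low. Of 11 listed interferon genes, Ifna4, Ifna5 and Ifnl2 had 0 counts in all libraries, which allows up to 3 counts, or 0.0578 to 0.0774 CPM, per library, for counting error only. Ifna1, Ifna2, Ifnk, Ifne, Ifnz and Ifnl3 had at most 4 counts in any library. Ifnb1, the gene for interferon beta, had 0, 5 and 6 counts in Sham 1, 3 and 4 and 12, 22 and 24 counts in PHx 1, 3 and 4. The PHx libraries all lay above the sham libraries, but at these counts the adjusted p was 0.377 in edgeR, and DESeq2 gave none. Ifng, the interferon of T and NK cells, was at 2.65, 1.26 and 1.75 CPM in sham and 2.22, 0.717 and 0.542 CPM in PHx.

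Of 98 further listed pathway genes found in the table, these ligands included, 89 passed the filter. None was called by edgeR, against 0.862% of all tested genes, and 6 (6.74%) had an unadjusted edgeR p under 0.05, against 12.7%. DESeq2 called 1 higher and 1 lower, against 4.73% of all the genes it tested in either direction. Limma-voom called 0, against 0.499%. The median log2 fold change of the 89 genes was -0.02. In 12 of the 89 (13.5%) the groups did not overlap, against 20.5% of all tested genes.

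Jak1, the kinase that serves both receptor types (chromosome 4, 101151974 to 101265291), was at 2112, 2029 and 2094 CPM in sham and 1239, 1629 and 1321 CPM in PHx. All PHx libraries lay below all sham libraries. The log2 fold change was -0.57 ± 0.15, with an adjusted p of 0.189 in edgeR and 0.00526 in DESeq2. Tyk2, the kinase bound to IFNAR1, differed by -0.31 ± 0.15 on the log2 scale (adjusted p of 0.450 in edgeR). The part of the sinusoidal endothelial markers, 8 of 10 of which also lay lower in all PHx libraries, was not tested.

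The other call of DESeq2 was Ifi27l2a, named after its values were seen. It was at 7.42, 7.17 and 4.65 CPM in sham and 18.2, 10.5 and 12.0 CPM in PHx, with no overlap between the groups. Its log2 fold change was 1.08 ± 0.28, with an adjusted p of 0.162 in edgeR and 0.0116 in DESeq2. Its interval on chromosome 12 (103433873 to 103443680) overlaps that of Ifi27, and reads of the pair cannot be told apart where strand was not used.

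A listed feedback inhibitor and the adaptor of the RNA sensors were also read per library. Socs1, an inhibitor of JAK kinases, was at 44.6, 21.5 and 79.0 CPM in sham and 17.0, 56.9 and 64.7 CPM in PHx, with overlapping groups. Mavs, the mitochondrial adaptor of RIG-I and MDA5, was at 50.5, 53.8 and 55.5 CPM in sham and 39.6, 47.1 and 31.9 CPM in PHx, lower in all PHx libraries. The difference of Mavs was -0.43 ± 0.15 on the log2 scale, with an adjusted p of 0.309 in edgeR.

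Chemokines induced by interferon gamma had the library order of Irf1 within each group. Cxcl9 was at 206, 109 and 364 CPM in sham and 67.1, 334 and 372 CPM in PHx. Cxcl10 was at 454, 148 and 696 CPM in sham and 142, 789 and 910.3 CPM in PHx. In both, Sham 3 and PHx 1 were the lowest libraries of their groups, and the groups overlapped. Irf4, a family member outside the list of 43, was scarce, at 1.41 to 5.16 CPM over all libraries.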

How the data were processed

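The authors deposited whole-number counts and RPKM values per gene and library. Per the submitters' processing notes, bcl2fastq and TopHat2 2.0.13 were used with mm10 (GRCm38). The counting program, annotation and use of strand are not given in the sources used here. The deposited RPKM equalled count divided by the deposited length and summed counts in 100% of cases (tolerance 1e-06, relative) and served only to compare levels between genes. 

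The test on the counts was that of edgeR 4.0.16 under R 4.3.3 (TMM scaling, filterByExpr, robust quasi-likelihood F-test, group only), with Benjamini-Hochberg adjustment over 19033 genes. SE is the absolute log2 fold change over the square root of F. Intervals use the test's degrees of freedom. DESeq2 1.42.0, limma 3.58.1 (voom), other scalings and filters, the replicate number as a block and leaving out each library were alternatives. On simulated counts the fit missed most genes changed 2-fold. No library was a copy of another (chi-square per degree of freedom of at least 55.7).

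The genes and lists were chosen with earlier results of these data known. Values per library are given for genes called or not overlapping, the 3 most abundant per length of each role, the 5 largest changes and fixed pathway genes. Ifit1, Mx2 and further genes given per library fall outside that rule and were chosen after their values were seen. The listed Ifi207 was not matched in the table. Some listed pathway genes are not reported here.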

Additional observations from a re-analysis of the deposited data

How the results depend on the processing

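The absence of calls among the 43 genes held in edgeR under every alternative run, and DESeq2 alone called 1 (Oas2, higher). Depth limits scarce genes such as Mx1 (41 to 117 counts per library) and the interferon ligands. Of the other pathway genes, DESeq2 called 1 higher and 1 lower, and edgeR with no filter on low counts called 1 higher, Ifi27l2a. Over all genes 161 were higher and 3 lower. The counts were 721 and 126 with DESeq2, 359 and 30 with no filter, 339 and 20 when the adjusted p threshold was 0.10, 94 and 1 with limma-voom, and 14 and 1 with the replicate number as a block. Leaving out each library gave 0 to 160 higher and 0 to 9 lower, the counts being 0 and 0 if Sham 4 was dropped, 6 and 1 if Sham 3, 34 and 2 if Sham 1, 58 and 4 if PHx 1 and 82 and 9 if PHx 3 was. The looser threshold shows its own cause, and the fits without a library had fewer samples. Elsewhere the cause was not tested. Libraries with the same number were not paired by their deviations from the group means (r = -0.09, -0.23 and 0.03), and the block called none of the 43 genes.

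Log2 fold changes of many genes changed sign without a call. Upper-quartile factors gave -0.0029 for Stat2, -0.022 for Irf2, -0.017 for Irf9, -0.0043 for Ifih1 and -0.017 for Oasl2. No filter gave -0.016 for Irf2, -0.012 for Irf9, -0.0019 for Ifih1 and -0.015 for Oasl2, and requiring 5 CPM or more in 3 libraries gave 0.018 for Ifnar1 and 0.0055 for Trim25 and left out Mx1. Limma-voom gave -0.0036 for Oasl2, and the replicate block gave -0.0034 for Oasl2 and -0.0068 for Irgm1. Leaving out each library changed the sign of 31 of the 43 genes, with 11 keeping it in every alternative. Its ranges were -0.027 to 0.17 for Ifngr1, -0.0083 to 0.14 for Ifngr2, -0.12 to 0.12 for Stat2, -0.10 to 0.99 for Irf1, -0.049 to 0.061 for Irf2, -0.11 to 0.18 for Irf7, -0.15 to 0.63 for Irf8 and -0.060 to 0.090 for Irf9. They were -0.077 to 0.16 for Ifih1, -0.050 to 0.12 for Ddx58, -0.16 to 0.049 for Dhx58, -0.12 to 0.084 for Trim25, -1.25 to 0.39 for Ifit1, -1.03 to 0.063 for Ifit3, -0.10 to 0.10 for Isg20, -0.15 to 0.24 for Usp18, -0.37 to 0.24 for Mx1 and -0.45 to 0.85 for Mx2. They were -0.30 to 0.14 for Oas1a, -0.14 to 0.73 for Oasl1, -0.14 to 0.15 for Oasl2, -0.94 to 0.050 for Rsad2, -0.29 to 0.020 for Rtp4, -0.36 to 0.073 for Xaf1, -0.62 to 0.23 for Ifi44 and -0.27 to 0.012 for Parp14. They were -0.36 to 0.070 for Gbp2, -0.071 to 0.47 for Gbp3, -0.29 to 0.28 for Gbp7, -0.53 to 0.19 for Igtp and -0.35 to 0.42 for Irgm1, and among pathway genes -0.18 to 0.67 for Cxcl9 and -0.14 to 0.79 for Irf4.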
